A study of Homo sapiens with 12 samples.

Results

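The genes described here are 10 members of the Notch pathway: the receptors NOTCH1, NOTCH2, NOTCH3 and NOTCH4, the ligands JAG1, DLL1 and DLL4, and the target genes HES1, HEY1 and HEYL. They were picked by symbol out of 62069 genes in a table of RNA-seq counts. DLL4 was chosen because its level was higher with both shRNAs against XPO7, and the others for their place in the pathway. The values that chose DLL4 are therefore described without a test. All libraries came from IMR90 ER:RAS cells, diploid human lung fibroblasts with a fusion of RAS and the estrogen receptor's hormone-binding domain. Adding 4-hydroxytamoxifen (4OHT) switches the fusion on and drives the cells into oncogene-induced senescence (OIS). There were 4 groups of 3 libraries: vector cells without 4OHT (vector), vector cells given 4OHT (vector/4OHT), and 4OHT-treated cells with the shRNA shXPO7_3 (shXPO7_3/4OHT) or shXPO7_5 (shXPO7_5/4OHT). Every group was sampled on day 5, and the 3 induced groups had received 100 nM 4OHT. Each library is also listed with 7 culture days and a medium change on day 4. The labels give the state of induction and the shRNA, while the vector is named by the study itself. The replicates carry the letters T, A and B, or T, A and C in the vector group. It is not stated whether they were separate cultures, so every p-value below measures the spread between libraries, which may be technical.

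Notch receptors are cut by furin on their way to the cell surface. When a Delta or Jagged ligand on a neighbouring cell pulls on the receptor, ADAM proteases and then γ-secretase release its intracellular part, which enters the nucleus, joins RBPJ and Mastermind proteins and turns on HES and HEY genes, whose products are repressors. In fibroblasts undergoing OIS, Notch signalling is known to shift the senescent secretome between a TGF-β-like state and an inflammatory one, and JAG1 can pass the signal to neighbouring cells.

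RBPJ binds DNA at a motif whose core is TGGGAA, so the bases ahead of the start of the target genes are shown, with DLL4 for contrast as the member chosen for its knockdown response. RefSeq start sites (GRCh38.p14) were at hand for 8 of the 10 members. No window was at hand for DLL1 and HEY1. The search covered both strands of the 250 bases before each start, and the capitals mark TGGGAA or, where the match is on the other strand, its reverse complement TTCCCA. HES1 (chr3:194135898-194136147, plus strand) held 2 matches, 84 and 70 bases before its start, both on the strand of the gene. HEYL (chr1:39639644-39639893, minus strand) also held 2, at 178 bases on the opposite strand and at 99 bases on its own strand. The DLL4 window (chr15:40929090-40929339, plus strand) held none, nor did those of NOTCH1, NOTCH2, NOTCH3, NOTCH4 and JAG1.
HES1: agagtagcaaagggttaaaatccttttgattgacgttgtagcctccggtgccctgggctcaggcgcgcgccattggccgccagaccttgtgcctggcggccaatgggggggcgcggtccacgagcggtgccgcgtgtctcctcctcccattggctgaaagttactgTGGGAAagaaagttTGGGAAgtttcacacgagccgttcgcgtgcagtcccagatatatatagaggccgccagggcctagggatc
HEYL: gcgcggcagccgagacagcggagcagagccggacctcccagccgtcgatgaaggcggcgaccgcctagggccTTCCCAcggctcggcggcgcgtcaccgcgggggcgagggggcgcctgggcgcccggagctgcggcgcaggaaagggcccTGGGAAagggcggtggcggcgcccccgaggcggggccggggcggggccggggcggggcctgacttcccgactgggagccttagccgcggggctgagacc
DLL4: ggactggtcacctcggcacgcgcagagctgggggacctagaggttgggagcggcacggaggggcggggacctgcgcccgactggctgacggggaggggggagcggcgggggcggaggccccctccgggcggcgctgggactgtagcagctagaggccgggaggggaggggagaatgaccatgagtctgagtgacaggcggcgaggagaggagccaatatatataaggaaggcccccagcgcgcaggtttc
The core was found in 20.8% of 35116 RefSeq windows of this length, and 2.90% held 2 or more. A longer form, GTGGGAA, which contains the core, was present once in HES1 and once in HEYL, and in 5.43% of all windows. A match is a description of the letters and not a site shown to be bound.

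Library totals ran from 28534141 to 60397769 counts, with a median of 35319409. XPO7, the nuclear transport receptor targeted by the shRNAs, stood at 127 to 144 CPM (read counts relative to library size, scaled by the TMM method) in vector/4OHT, 26.4 to 28.7 in shXPO7_3/4OHT and 50.8 to 54.0 in shXPO7_5/4OHT. It fell 4.94-fold with shXPO7_3 (log2 fold change -2.30 ± 0.07, SE; adjusted p = 1.24e-08 by edgeR) and 2.62-fold with shXPO7_5 (-1.39 ± 0.07; 3.27e-06). All 9 fibroblast markers examined reached 1 CPM in every group. Their summed level was 24274 to 28103 CPM in vector and 16953 to 18418 CPM in vector/4OHT, with DCN at 987 and 95.6 CPM on average. PDGFRA did not fall, with 246 CPM in vector and 253 CPM in vector/4OHT. From vector to vector/4OHT the sum of 5 smooth muscle and pericyte markers went from 411 to 448 down to 198 to 202 CPM. Smooth muscle cells and pericytes also express NOTCH3 and HEYL. In this sum ACTA2 went from 362 to 162 CPM on average, while RGS5 rose from 13.1 to 21.0 CPM. The sum of 5 epithelial markers went from 69.1 to 84.6 down to 40.1 to 46.3 CPM. There KRT19 went from 33.6 to 2.01 CPM and KRT18 from 32.4 to 34.0 CPM. The 4 blood markers stayed at or under 0.198 CPM in sum. The part of these markers in the OIS results was not tested. Of 8 endothelial markers, looked at because DLL4 and NOTCH4 are known for their part in vessels, CDH5 and PECAM1 were at 0 in all 12 libraries. The summed level of the 8 was 14.9 to 17.2 CPM in vector/4OHT, 17.3 to 19.3 in shXPO7_3/4OHT and 15.3 to 18.8 in shXPO7_5/4OHT, against 15.6 to 16.3 in vector. Within that sum TEK went from 12.4 to 6.31 CPM and TIE1 from 1.06 to 6.21 CPM between vector and vector/4OHT. Their part in the values of DLL4 and NOTCH4 was not tested. One technical trend touches several members. Over all genes, the shXPO7_5 fold change followed the GC content of the transcripts with a Spearman coefficient of 0.70 (shXPO7_3, 0.15; OIS, -0.14). By library, against the vector/4OHT mean, the coefficient was 0.79 in shXPO7_5/4OHT replicate B, 0.61 in replicate T and 0.12 in replicate A, and 0.58 in shXPO7_3/4OHT replicate T. NOTCH1, NOTCH3, DLL4, DLL1, NOTCH4 and HEYL are GC-rich, between the 83.6th and the 95.1st percentile of the genes tested, whereas HES1, JAG1, HEY1 and NOTCH2 lie between the 46.1st and the 57.0th. Knockdown fold changes are therefore also given with this trend removed (GC- and length-corrected). RNA was measured in bulk, so fewer cells expressing a gene and less RNA per cell cannot be told apart.

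Per kilobase of exon, which allows genes to be compared with each other, NOTCH2 had the highest level in all 4 groups. In vector cells it stood at 23.7 CPM per kilobase, followed by NOTCH3 (9.20), JAG1 (3.43), NOTCH1 (2.69), DLL4 (2.23), HES1 (0.875), HEY1 (0.205), NOTCH4 (0.0908), DLL1 (0.0589) and HEYL (0.0241). The libraries of neighbours in this order overlapped for JAG1 and NOTCH1, for NOTCH1 and DLL4, for NOTCH4 and DLL1 and for DLL1 and HEYL. In vector/4OHT the levels per kilobase were 13.5 for NOTCH2, 9.72 for NOTCH3, 8.21 for HES1, 5.93 for JAG1, 3.86 for NOTCH1, 3.07 for HEY1, 2.004 for DLL4, 0.169 for DLL1, 0.116 for HEYL and 0.0816 for NOTCH4. HES1 had moved from the sixth place to the third, and its libraries lay above those of JAG1 and below those of NOTCH3. Of the ligands JAG1 was the highest per kilobase in each group, and DLL1 the lowest.

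**Figure D1:**
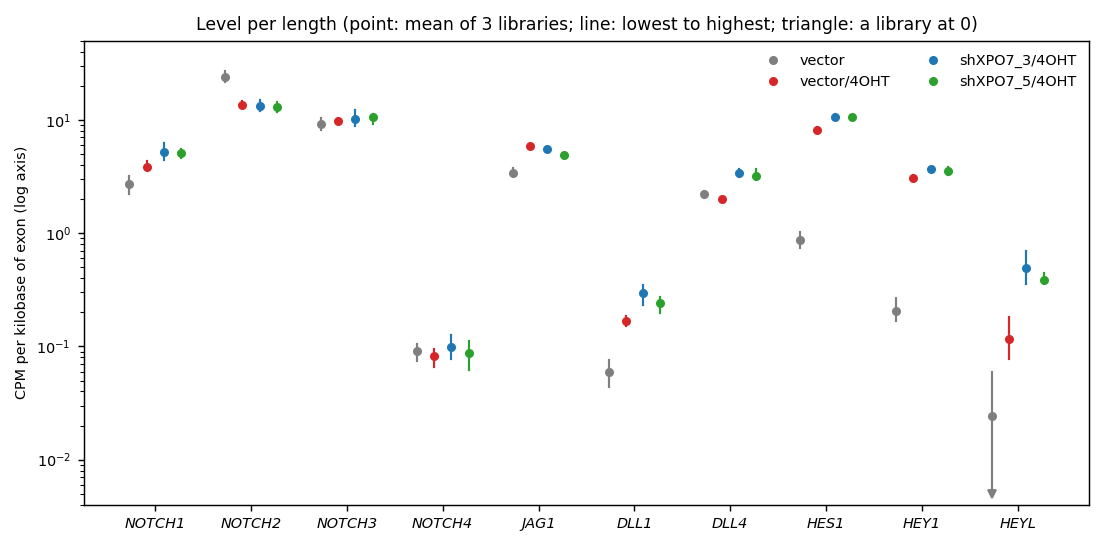
Level of each member in CPM per kilobase of exon on a log axis, with the mean of 3 libraries per group as a point and the lowest to highest library as a line. NOTCH2 and NOTCH3 lie at the top in vector cells, and HES1 rises from 0.875 in vector to 8.21 in vector/4OHT. The triangle marks HEYL, which was at 0 in 1 vector library.

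The first comparison asks how the pathway differed in cells made senescent by RAS. Of the 10 members, 7 passed the test (adjusted p under 0.05, edgeR quasi-likelihood with Benjamini-Hochberg adjustment over 15284 genes). NOTCH1, JAG1, DLL1, HES1, HEY1 and HEYL rose, NOTCH2 fell, and NOTCH3, NOTCH4 and DLL4 did not pass. In this comparison 50.9% of all genes tested were called, so many calls are the background. All 3 vector/4OHT libraries lay above all 3 vector libraries for those 6 members and below them for NOTCH2. The same holds for 31.8% of all genes in the upward and 31.4% in the downward direction. DLL1 and HEYL entered the test only through the induced libraries: 0 of 3 vector libraries reached the filter's cut-off of 0.283 CPM for either gene. DLL1 reached it in all 3 vector/4OHT libraries, so the filter favoured a difference. HEYL reached it in 2 of them and passed the filter through the knockdown libraries, and a fit of these 2 groups did not test it. Neither adds to the count. Over the other 8 members 4 rose, 1 fell, and the median log2 fold change was 0.30, against -0.01 over all genes.

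The targets showed the largest changes. HEY1, which encodes a repressor of the Hairy and Enhancer-of-split-related family (ENSG00000164683), stood at 0.865, 0.583 and 0.538 CPM in vector replicates T, A and C, and at 9.32, 9.96 and 10.5 CPM in vector/4OHT replicates T, A and B. The groups were far apart, with fewer than 30 counts in each vector library and 281 or more in each induced one. HEY1 rose 15.1-fold (log2 fold change 3.92 ± 0.15, SE, n = 3 per group; adjusted p = 5.64e-10, edgeR). HES1, the classical target of the pathway (ENSG00000114315), whose window with 2 TGGGAA matches is shown above, measured 2.13, 1.75 and 1.53 CPM in vector and 17.7, 16.3 and 16.8 CPM in vector/4OHT. It rose 9.40-fold (log2 fold change 3.23 ± 0.11, adjusted p = 3.44e-10 by edgeR). HEYL, another repressor of the HEY group (ENSG00000163909), was barely detected in vector cells with 7, 2 and 0 counts (0.216, 0.0486 and 0 CPM) and had 12, 8 and 33 counts in vector/4OHT (0.328, 0.284 and 0.666 CPM). Its log2 fold change of 2.38 ± 0.69 (adjusted p = 0.0116, edgeR) rests on few reads: without vector replicate A it was 2.07 with an adjusted p of 0.0547 by edgeR, and without vector/4OHT replicate B it was 1.83 with 0.0756.

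The receptors went different ways. NOTCH2, the most abundant receptor (ENSG00000134250), measured 451, 380 and 366 CPM in vector and 245, 220 and 214 CPM in vector/4OHT. It fell 1.76-fold (log2 fold change -0.82 ± 0.11, adjusted p = 5.82e-05 by edgeR). The genome holds near-identical partial copies of NOTCH2, and the sources do not state how reads matching more than 1 place were counted, so its level is uncertain. NOTCH1 (ENSG00000148400) measured 33.4, 27.3 and 23.2 CPM in vector and 44.8, 37.6 and 37.7 CPM in vector/4OHT. It rose 1.43-fold (log2 fold change 0.52 ± 0.15, adjusted p = 0.0124 by edgeR). Without vector/4OHT replicate T the adjusted p by edgeR was 0.0546, and with upper-quartile scaling it was 0.0569. The call thus depends on that library and on the scaling, though 14 of 16 alternatives kept it. GC- and length-corrected, the NOTCH1 value was 0.65 ± 0.105 (adjusted p = 1.25e-04, edgeR), in a fit that called 9876 of 15284 genes. For both genes the library lettered T was the highest in each of the 4 groups.

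NOTCH3, a receptor known from vascular smooth muscle and fibroblasts (ENSG00000074181), measured 97.0, 86.0 and 76.2 CPM in vector and 97.2, 88.2 and 88.6 CPM in vector/4OHT. The groups overlapped, and the log2 fold change was 0.08 with a 95% interval of -0.19 to 0.35 (adjusted p = 0.620, edgeR). GC- and length-corrected, it was 0.20 ± 0.07 and passed the test (adjusted p = 0.0163, edgeR), in a fit that called 9876 of 15284 genes. NOTCH4, the receptor best known from endothelium (ENSG00000204301), was near the limit of detection with 26 to 33 counts per library in these 2 groups, at 0.729 to 1.02 CPM in vector and 0.646 to 0.922 CPM in vector/4OHT. Its log2 fold change was -0.17 with an interval of -0.74 to 0.41. In the GENCODE 29 annotation 98 of its 9748 exon bases are shared with GPSM3, a gene with 4452 counts over the 12 libraries, so these reads may be divided in a way that cannot be seen here.

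Among the ligands, JAG1 (ENSG00000101384) was the most abundant, with 34.9, 31.0 and 29.7 CPM in vector against 55.3, 55.5 and 54.5 CPM in vector/4OHT. It rose 1.73-fold (log2 fold change 0.79 ± 0.07, adjusted p = 2.28e-06 by edgeR). DLL1, a Delta-type ligand (ENSG00000198719), was low throughout, with 6, 10 and 5 counts in vector and 18, 17 and 27 in vector/4OHT. The levels were 0.185, 0.243 and 0.142 CPM against 0.492, 0.603 and 0.545 CPM, a log2 fold change of 1.48 ± 0.29 (adjusted p = 9.46e-04, edgeR). As DLL1 was tested only through the induced libraries, nothing is read from this p-value. DLL4, the Delta-type ligand best known from sprouting vessels (ENSG00000128917), measured 11.2, 9.64 and 10.97 CPM in vector and 9.10, 9.96 and 9.56 CPM in vector/4OHT. The groups overlapped, and its log2 fold change in OIS was -0.15 with an interval of -0.38 to 0.08 (adjusted p = 0.258, edgeR).

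**Figure D2:**
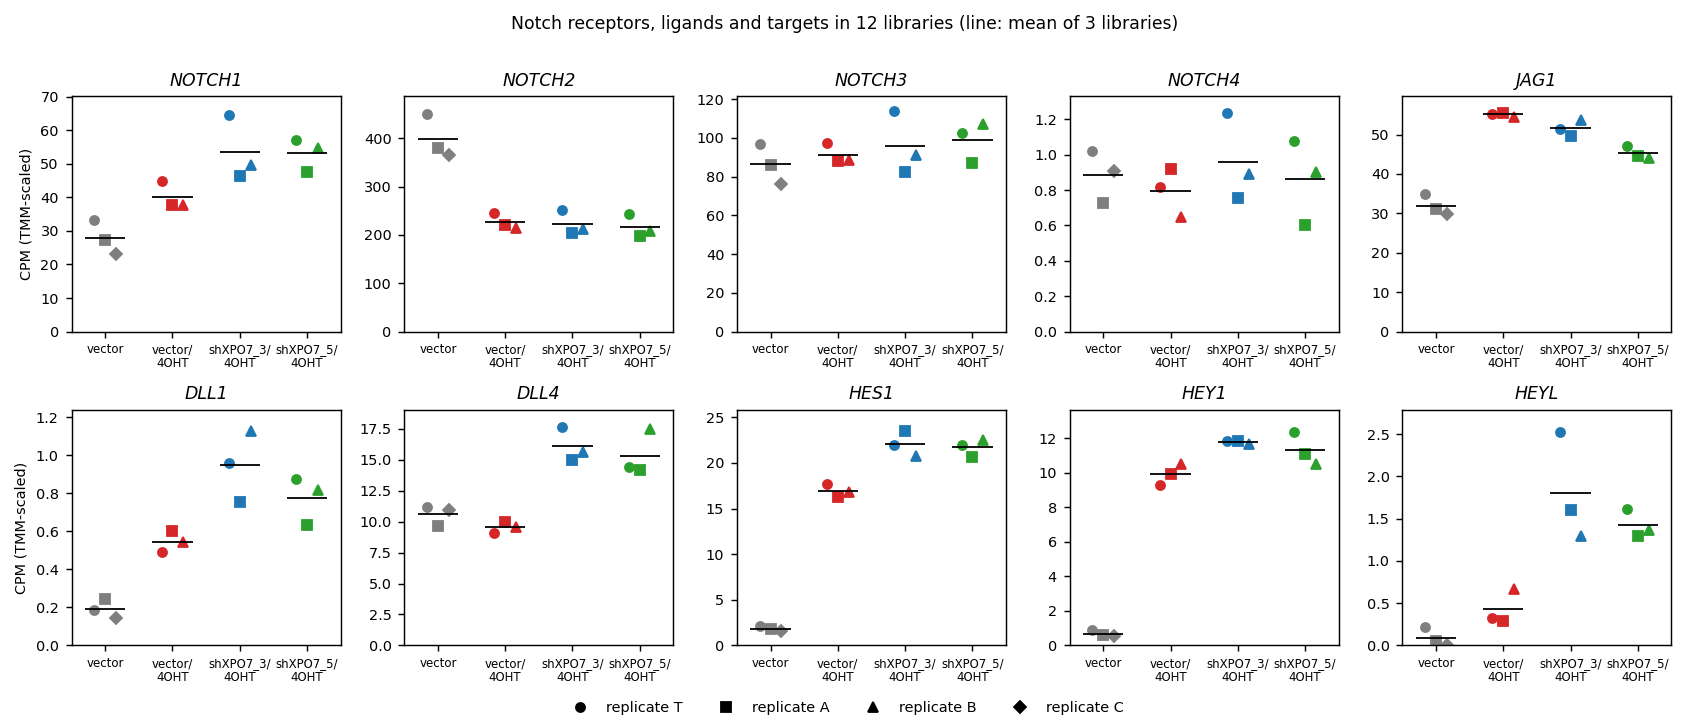
CPM of each member in all 12 libraries on linear axes that start at 0, with 1 symbol per replicate letter and the mean of 3 libraries as a line. HES1 and HEY1 stand near the axis in vector and above 9 CPM in every induced library, NOTCH2 is lower in all 9 induced libraries, and DLL4 is higher in the 6 knockdown libraries than in the 6 vector and vector/4OHT libraries.

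The other comparisons ask what changed when XPO7 was knocked down in cells given 4OHT. Both share the same vector/4OHT libraries, so their values are set side by side and not counted as independent. DLL4 measured 17.7, 14.98 and 15.7 CPM (T, A, B) in shXPO7_3/4OHT and 14.4, 14.1 and 17.5 CPM in shXPO7_5/4OHT, against 9.10 to 9.96 CPM in vector/4OHT. All 6 knockdown libraries were above the 11.2 CPM of the highest library of the other groups. The log2 fold change was 0.76 ± 0.11 (1.69-fold) with shXPO7_3 and 0.69 ± 0.11 (1.61-fold) with shXPO7_5. This is the pattern for which the gene was chosen. The GC- and length-corrected values were 0.73 ± 0.08 and 0.46 ± 0.08, so the shXPO7_5 value was the one that moved.

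Of the 9 members not chosen by their response, 0 passed the test with either shRNA (edgeR). DLL4 was past the threshold in both, but as the rule used these values nothing is read from it. Over all genes, 19 or 0.124% were called with shXPO7_3 and 90 or 0.589% with shXPO7_5, and 979 and 3302 genes had an unadjusted p under 0.05. With DESeq2, HES1 was called with both shRNAs and HEYL with shXPO7_3. DESeq2 called 88 of 14389 genes with shXPO7_3 and 426 of 11726 with shXPO7_5. GC- and length-corrected, edgeR called 397 and 514 of 15284 genes. Of the members other than DLL4 these held HES1 with both shRNAs, HEYL with shXPO7_3 and JAG1 with shXPO7_5. HEYL passed the filter through the knockdown libraries, so nothing is read from its calls. With shXPO7_3, 6 members had all 3 libraries above vector/4OHT, 1 had all 3 below and 3 overlapped, where 7.46% and 7.15% of all genes lay fully above or below. With shXPO7_5 the counts were again 6, 1 and 3, against 14.2% and 12.6% of all genes. Leaving out DLL1 and HEYL as in OIS, 4 of 8 members lay fully above and 1 fully below with each shRNA. The median log2 fold change was 0.27 with shXPO7_3 and 0.16 with shXPO7_5, and over all genes it was within 0.01 of 0. For DLL1 the filter did not favour a difference here, as all 3 vector/4OHT libraries reached its cut-off. These medians are not corrected for the GC trend, which was strong with shXPO7_5. DLL4 is one of the 6 and of the 4, and the members were chosen with these results known. The shares and medians are therefore given as a description. The number of genes called changed strongly whichever library of a comparison was left out. With any 1 library left out it was 1 for shXPO7_3, and for shXPO7_5 between 2 and 14 with 1 exception. Without shXPO7_5/4OHT replicate A, the library of its group with the weakest GC trend, it was 3634 of 15790. Beside DLL4, which the rule chose, and HEYL, which the filter favoured, that fit called HES1, JAG1 and NOTCH1. The shXPO7_5/4OHT libraries it kept, T and B, had GC coefficients of 0.61 and 0.79, so these calls are a description. Every other fit with 1 library left out called 0 members with either shRNA.

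**Figure D3:**
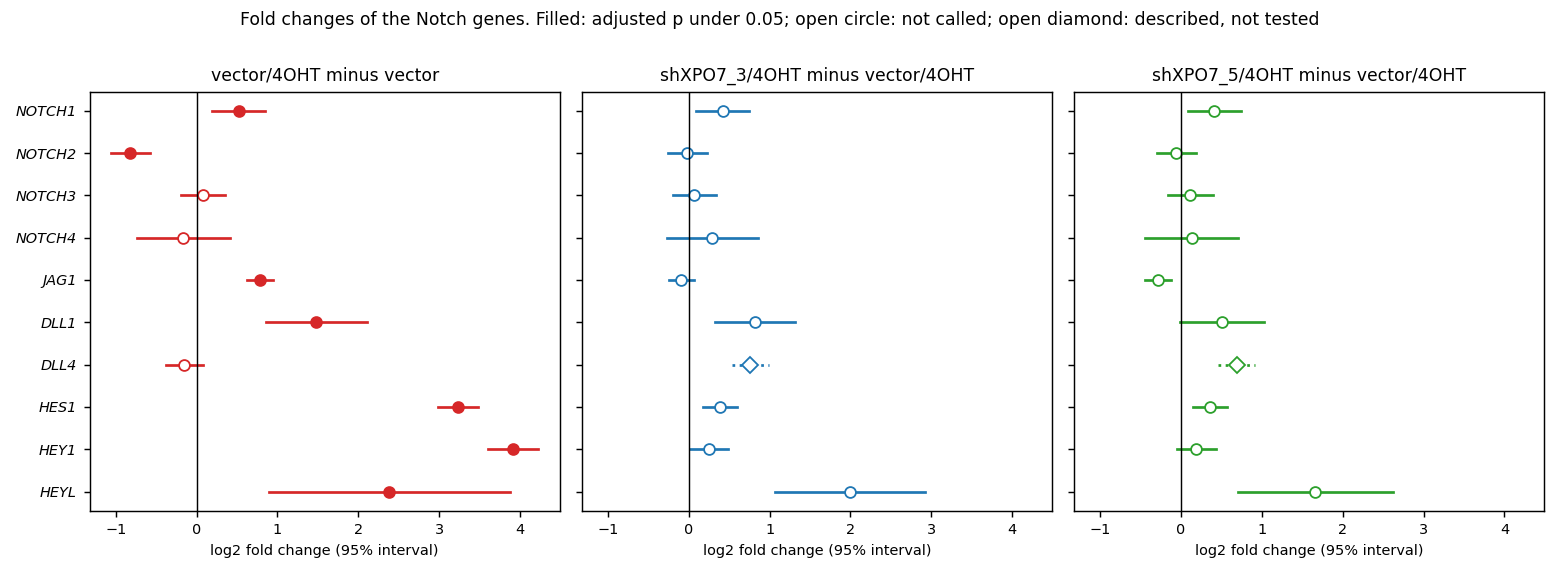
Log2 fold change with its 95% interval for each member in OIS and with each shRNA. Filled circles mark an adjusted p under 0.05, open circles members that did not pass and the open diamond DLL4, which was chosen for these values. HEY1 (3.92) and HES1 (3.23) lie far to the right in OIS, while with the shRNAs every interval except those of DLL4 belongs to an uncalled member.

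HES1 measured 22.0, 23.5 and 20.8 CPM in shXPO7_3/4OHT and 22.0, 20.7 and 22.5 CPM in shXPO7_5/4OHT. All 6 values lay above the 16.3 to 17.7 CPM of vector/4OHT. Fold changes of HES1 on the log2 scale were 0.38 ± 0.09 with shXPO7_3 and 0.36 ± 0.09 with shXPO7_5, and neither passed (adjusted p = 0.217 and 0.102, edgeR). Corrected for GC content and length, it was 0.37 ± 0.07 and 0.27 ± 0.07 and passed in both (adjusted p = 0.0101 and 0.0472, edgeR), with 397 and 514 of 15284 genes called. Without shXPO7_5/4OHT replicate A the shXPO7_5 value was 0.39 and passed (adjusted p = 0.0352, edgeR), in the fit that called 3634 of 15790 genes.

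HEYL had the largest fold changes of the members in the knockdowns, at levels that stayed low. It measured 2.52, 1.60 and 1.30 CPM in shXPO7_3/4OHT (92, 53 and 77 counts) and 1.62, 1.30 and 1.36 CPM in shXPO7_5/4OHT (48, 43 and 50 counts), against 12, 8 and 33 counts in vector/4OHT. The knockdown and vector/4OHT groups did not overlap, and shXPO7_3/4OHT replicate T stood above the rest. Against vector/4OHT, HEYL had a log2 fold change of 1.99 ± 0.43 with shXPO7_3 (adjusted p = 0.125, edgeR) and of 1.66 ± 0.44 with shXPO7_5 (adjusted p = 0.104, edgeR). With DESeq2 the shXPO7_3 value was 2.04 with an adjusted p of 6.05e-04, and with the GC and length correction by edgeR it was 1.95 with 0.0177. Without shXPO7_5/4OHT replicate A the shXPO7_5 value passed (1.72, adjusted p = 0.0391 by edgeR), in the fit that called 3634 of 15790 genes. After the correction in all libraries the shXPO7_5 value was 1.44 (adjusted p = 0.0660, edgeR). HEYL reached the filter's cut-off in 0 vector, 2 vector/4OHT and all 6 knockdown libraries, so it was tested largely because it is high in the knockdowns. Nothing is therefore read from its p-values in these comparisons.

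HEY1 measured 11.9, 11.9 and 11.7 CPM in shXPO7_3/4OHT and 12.4, 11.1 and 10.5 CPM in shXPO7_5/4OHT, where vector/4OHT had 9.32 to 10.5. The log2 fold change was 0.25 with shXPO7_3 (95% interval 0.01 to 0.48, adjusted p = 0.746 by edgeR) and 0.19 with shXPO7_5 (-0.05 to 0.43, adjusted p = 0.286). These intervals lie far below the OIS change of the same gene. For all 3 targets the vector/4OHT and knockdown libraries stood above every vector library.

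Of the receptors, NOTCH1 measured 64.7, 46.4 and 49.7 CPM in shXPO7_3/4OHT and 57.1, 47.7 and 54.7 CPM in shXPO7_5/4OHT, above the 37.6 to 44.8 CPM of vector/4OHT. NOTCH1 had a log2 fold change of 0.42 ± 0.15 with shXPO7_3 and 0.41 ± 0.15 with shXPO7_5, not called (adjusted p = 0.547 and 0.191, edgeR). NOTCH1 has the highest GC content of the members, and after correction the shXPO7_5 value was 0.17 ± 0.10 while the shXPO7_3 value was 0.37 ± 0.10. Without shXPO7_5/4OHT replicate A the uncorrected shXPO7_5 value was 0.48 and passed narrowly (adjusted p = 0.0494, edgeR). That fit called 3634 of 15790 genes and kept the libraries of the group with the stronger GC trend.

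NOTCH2 measured 252, 203 and 212 CPM in shXPO7_3/4OHT and 243, 198 and 209 CPM in shXPO7_5/4OHT, overlapping the 214 to 245 CPM of vector/4OHT. Its log2 fold change was -0.02 (95% interval -0.26 to 0.22) with shXPO7_3 and -0.06 (-0.30 to 0.18) with shXPO7_5. NOTCH3 ranged from 82.6 to 114 CPM in shXPO7_3/4OHT and from 87.1 to 107 CPM in shXPO7_5/4OHT, around the 88.2 to 97.2 CPM of vector/4OHT, with log2 fold changes of 0.07 (-0.20 to 0.34) and 0.11 (-0.16 to 0.39). The second became -0.13 after the correction. NOTCH4 remained at 20 to 53 counts per library, and its intervals of -0.27 to 0.85 and -0.45 to 0.71 leave room for changes in both directions.

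JAG1 was the member with all knockdown libraries below vector/4OHT. It measured 51.4, 49.6 and 53.7 CPM in shXPO7_3/4OHT and 47.0, 44.5 and 44.0 CPM in shXPO7_5/4OHT, against 54.5 to 55.5 CPM. The log2 fold change was -0.10 ± 0.07 with shXPO7_3 (adjusted p = 0.999, edgeR) and -0.29 ± 0.07 with shXPO7_5 (adjusted p = 0.0948, edgeR). Corrected for GC content and length, the shXPO7_5 value was -0.36 ± 0.05 and passed (adjusted p = 0.00296, edgeR). So did the uncorrected one without shXPO7_5/4OHT replicate A (-0.27, adjusted p = 0.0407 by edgeR), in the fit that called 3634 of 15790 genes. The levels with shXPO7_5 were still above the 29.7 to 34.9 CPM of vector cells. DLL1 measured 0.960, 0.755 and 1.13 CPM in shXPO7_3/4OHT (35, 25 and 67 counts) and 0.876, 0.634 and 0.819 CPM in shXPO7_5/4OHT (26, 21 and 30 counts), all above vector/4OHT. Its log2 fold change was 0.82 ± 0.23 with shXPO7_3 (adjusted p = 0.303, edgeR) and 0.51 ± 0.24 with shXPO7_5 (adjusted p = 0.235, edgeR), the second falling to 0.28 ± 0.23 after the correction.

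**Figure D4:**
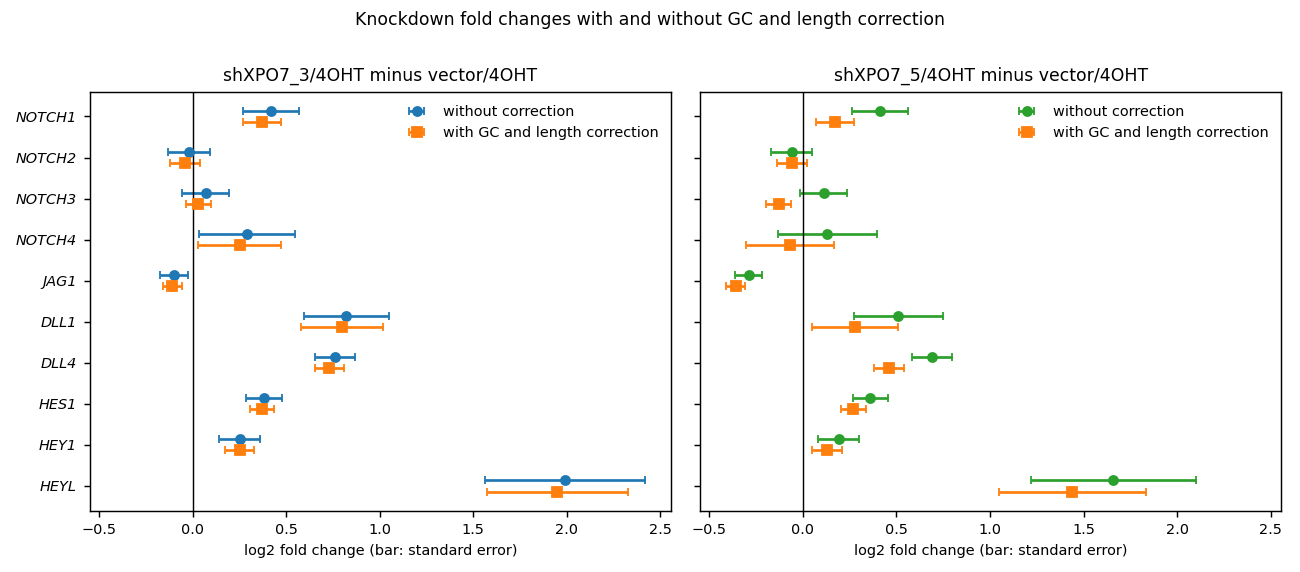
Log2 fold change of each member with each shRNA against vector/4OHT, without (circles) and with (squares) GC and length correction. Bars are standard errors. With shXPO7_3 the symbols nearly coincide, and with shXPO7_5 those of NOTCH1 move from 0.41 to 0.17, of DLL4 from 0.69 to 0.46 and of NOTCH3 from 0.11 to -0.13.

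Between the shRNAs, 0 of the 10 members passed the test (shXPO7_5/4OHT against shXPO7_3/4OHT, edgeR and DESeq2), where 2 genes or 0.0131% of all were called and 1819 had an unadjusted p under 0.05. The log2 differences ran from -0.33 (HEYL, 95% interval -1.15 to 0.50) to 0.04 (NOTCH3, -0.23 to 0.32). For JAG1 the shXPO7_5/4OHT libraries lay below all shXPO7_3/4OHT libraries, with a difference of -0.19 (-0.35 to -0.03, adjusted p = 0.388 by edgeR, unadjusted 0.0224). DLL4 differed by -0.07 (-0.29 to 0.16). XPO7 itself was 1.89-fold higher with shXPO7_5 than with shXPO7_3 (adjusted p = 3.87e-04, edgeR). The fold change between the shRNAs also followed GC content, with a Spearman coefficient of 0.72.

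Beyond the members, 51 other genes of the pathway were examined in 6 lists, of which 46 passed the filter. In OIS 13 of them rose, 9 fell and 24 did not pass the test, with a median log2 fold change of 0.11. The share called, 47.8%, is close to the 50.9% of all genes, so the counts list by list describe these genes and set them apart from no others. Among the other ligands 2 of 4 rose: DLK1, a non-canonical ligand, from 0.195 ± 0.02 to 0.561 ± 0.20 CPM (mean ± SD, n = 3; log2 fold change 1.51, adjusted p = 0.00299 by edgeR), and DLL3 (0.79). DLK1 was under the filter's cut-off in all 3 vector libraries and was tested through the induced ones. The filter thus favoured a difference for it too, and nothing is read from its p-value. Among the other HES and HEY genes and feedback targets 1 of the 4 tested passed, HES7, an oscillating repressor of the segmentation clock, which rose from 0.432 ± 0.04 to 2.10 ± 0.27 CPM (log2 fold change 2.28 ± 0.24, adjusted p = 7.29e-06 by edgeR). The other 3 tested did not pass, and 4 were too low to be tested.

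Of the 9 genes for receptor cleavage, 3 rose and 3 fell. Among the γ-secretase subunits PSENEN rose (log2 fold change 0.69, adjusted p = 6.34e-04 by edgeR) and PSEN2 fell (-0.62, adjusted p = 9.84e-04). Of 5 genes that add sugars to the receptors, 4 were tested and 2 rose, POGLUT1 (0.71) and LFNG. LFNG encodes Lunatic fringe, which changes how receptors answer Delta and Jagged ligands. It measured 2.44, 2.45 and 1.90 CPM in vector and 5.19, 4.96 and 5.16 CPM in vector/4OHT (log2 fold change 1.17 ± 0.12, adjusted p = 4.10e-06 by edgeR).

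The 11 genes of endocytosis and turnover included the largest change of the lists. NEURL1B, a ubiquitin ligase of the Neuralized family that acts on ligands, measured 17.6, 16.4 and 14.5 CPM in vector and 1.09, 0.851 and 0.888 CPM in vector/4OHT, and fell by 4.09 on the log2 scale (SE 0.21, adjusted p = 7.85e-09 by edgeR). Its relative NEURL1 fell from 1.09 ± 0.26 to 0.466 ± 0.08 CPM (log2 fold change -1.19, adjusted p = 0.00473 by edgeR). NUMB, an adaptor that holds Notch back by endocytosis, measured 119, 113 and 118 CPM in vector and 285, 292 and 292 CPM in vector/4OHT, and rose by 1.31 ± 0.06 on the log2 scale (adjusted p = 1.65e-09, edgeR). In this list 2 genes rose, 4 fell and 5 did not pass. In the list of 14 genes for the nuclear complex and its co-repressors, 3 rose, 2 fell and 9 did not pass. TLE1, a Groucho-type co-repressor, fell (log2 fold change -0.96, adjusted p = 1.27e-06 by edgeR), and its relative TLE2, at under 1 CPM, had 0.89 and did not pass. RBPJ, the DNA-binding partner of the cleaved receptors, was singled out after its values were seen. It measured 276 ± 56 CPM in vector and 331 ± 18 CPM in vector/4OHT and did not pass (0.26 on the log2 scale, adjusted p = 0.231 by edgeR).

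**Figure D5:**
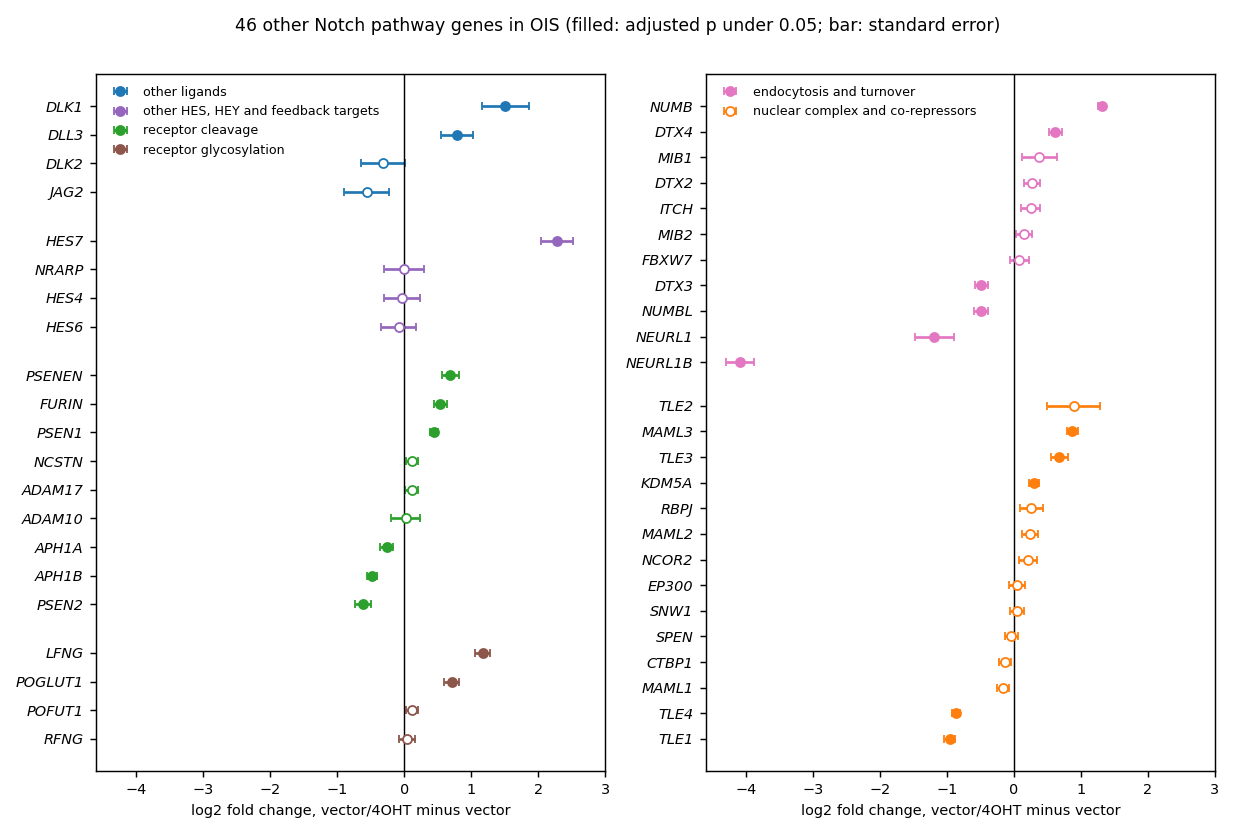
Log2 fold change in OIS, with its standard error, of the 46 pathway genes tested that are not members, grouped by list. Filled circles passed the test. NEURL1B lies farthest to the left at -4.09 and HES7 farthest to the right at 2.28, and each list holds both called and uncalled genes.

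With the shRNAs, 0 of the 46 passed with shXPO7_3 (0.124% of all genes did) and 1, or 2.17%, with shXPO7_5 (0.589% of all genes; edgeR). The 1 was LFNG, which measured 7.88, 7.25 and 6.57 CPM in shXPO7_3/4OHT and 8.52, 8.24 and 8.93 CPM in shXPO7_5/4OHT. All 6 libraries were above vector/4OHT. The log2 fold change was 0.74 ± 0.11 with shXPO7_5 (adjusted p = 0.0132, edgeR) and 0.50 ± 0.11 with shXPO7_3 (adjusted p = 0.125, edgeR). GC- and length-corrected, it was 0.51 and 0.47 and passed in both (adjusted p = 0.00947 and 0.0150, edgeR). Leaving out any 1 library other than shXPO7_5/4OHT replicate A took the shXPO7_5 value above the threshold (adjusted p from 0.0570 to 0.0834, edgeR). The median log2 fold change over the 46 genes was 0.01 with shXPO7_3 and 0.11 with shXPO7_5.

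The genes whose log2 CPM went most closely with a member were looked for among 12537 genes. Over all 12 libraries those of HEY1 were SPRED2, an inhibitor of RAS-ERK signalling (Pearson r = 0.999), RIPOR3-AS1 (0.997) and BMP2, a bone morphogenetic protein (0.997). Those of HES1 were the long non-coding RNA ENSG00000222032 (0.999), PLAU, the urokinase plasminogen activator (0.998), and ANKH (0.998), and those of HEYL were C2CD3 (0.986), FRAT2 (0.980) and MANF (0.966). For HEY1 and HES1 the vector and induced libraries form separate clusters, and a coefficient over both does not describe the spread within them. Over the 9 induced libraries the genes most like DLL4 were CYGB, cytoglobin (0.985), TMEM119 (0.973), ENSG00000136653 (0.972), INSC (0.963) and TAMALIN (0.961). DLL4 was chosen for its difference between groups among these 9, so the coefficients in part restate that choice. The libraries share their depth and GC trend across genes, so the coefficients are a description.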

How the data were processed

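RNA-seq of 12 libraries of IMR90 ER:RAS cells was analysed. Per-gene read counts, raw and by Ensembl identifier, were deposited by the authors. Their processing notes list CASAVA (1.8.4), TopHat2 (2.0.11) and featureCounts (1.18.0), with hg19 and GRCh37 as builds. The annotation, the strand option and the rule for multiply matching reads are not stated. The kit was for stranded mRNA. The 92 spike-in entries held 0 counts and were left out. Symbols, exon length and GC content came from GENCODE 29 (GRCh38), matched by identifier; 38397 genes with a symbol held 99.41% of counts.

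With R 4.3.3 and edgeR 4.0.16, genes were filtered by filterByExpr (15284 kept), scaled by TMM and fitted by quasi-likelihood over all 12 libraries in 4 groups. P-values were adjusted by Benjamini-Hochberg (threshold 0.05). An exact permutation test of 3 against 3 cannot go below p = 0.1 and was not used for calls. Within every group all library pairs differed beyond sampling noise. The alternatives were other scalings and filters, a replicate block, 1 surrogate variable (sva 3.50.0), a GC and length offset (spline with 5 degrees of freedom, 97.3% of genes), fits of 2 groups, each library left out and DESeq2 1.42.0. The fits were tested on simulated data. Members and lists were chosen with earlier results of these data known. All members were named, and of the other pathway genes those called with a log2 change of at least 1 in OIS or called with an shRNA, and up to 2 more per list.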

Additional observations from a re-analysis of the deposited data

How the results depend on the processing

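Counts of genes called moved most in the knockdown comparisons. For shXPO7_3, against 19, there were 8 with upper-quartile factors, 30 without a filter, 9 with a surrogate variable, 397 with the GC and length correction, 2 in a fit of the 2 groups, 88 with DESeq2, and 1 with any library left out. For shXPO7_5, against 90, there were 217 without a filter, 514 with the correction, 10 in the fit of the 2 groups, 426 with DESeq2, and 2 to 3634 with a library left out. Between the shRNAs, against 2, there were 20 without a filter, 1 with a surrogate variable, 47 with the correction, 0 in the fit of the 2 groups (820 at an unadjusted p under 0.05 by edgeR), 27 with DESeq2, and 1 to 4 with a library left out. The cause was not tested. Of the alternatives run on tested fold changes of members and named pathway genes, 651 kept direction and side of the threshold, 26 passed it anew, 10 lost it and 35 changed sign, each of these for an uncalled value. DLL4 with the shRNAs, described without a test, kept its direction in all 32 and moved by more than the spread of its libraries in 2, both with the correction (0.46). DESeq2 gave no adjusted p for DLL1, HEYL and NOTCH4 with shXPO7_5.

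Sign changes were as follows. In OIS, NOTCH3 was -0.02 with upper-quartile factors, which put the median of all genes at -0.10. With a surrogate variable, NOTCH2 with shXPO7_5 was 0.0036, and between the shRNAs NOTCH1 was 0.08, NOTCH2 0.02 and HES1 0.04; upper-quartile factors gave 0.03, 0.01 and 0.03. The GC and length correction gave -0.13 for NOTCH3 and -0.07 for NOTCH4 with shXPO7_5, and -0.16 for NOTCH3 between the shRNAs. Leaving out 1 library gave ranges with shXPO7_3 of NOTCH2 from -0.13 to 0.04, NOTCH3 from -0.08 to 0.17. Leaving out 1 library gave ranges with shXPO7_5 of NOTCH4 from -0.05 to 0.33. Leaving out 1 library gave ranges between the shRNAs of NOTCH1 from -0.10 to 0.15, NOTCH2 from -0.13 to 0.07, NOTCH3 from -0.05 to 0.19, NOTCH4 from -0.34 to 0.05, DLL4 from -0.17 to 0.01, HES1 from -0.06 to 0.02, HEY1 from -0.12 to 0.0015.

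The replicate letters did not pair the libraries in every comparison. Same-lettered libraries had deviations correlated from -0.02 to 0.06 for shXPO7_3, from -0.07 to 0.19 for shXPO7_5 and from -0.23 to 0.37 between the shRNAs, and OIS shares only 2 letters (0.20 and 0.21). Of 6 libraries, 0, 3 and 3 correlated best with their own letter for shXPO7_3, shXPO7_5 and between the shRNAs, and in OIS 3 of 4 did. With the letter as a replicate block, 7987 genes were called in OIS, 13 for shXPO7_3, 149 for shXPO7_5 and 3 between the shRNAs. NOTCH1 with shXPO7_5 then passed (0.41, adjusted p = 0.0441 by edgeR) and NOTCH3 in OIS was -0.0044. The replicate block together with the GC and length correction called 489, 1020 and 68 genes for shXPO7_3, shXPO7_5 and between the shRNAs. Beside DLL4, it called HES1, HEYL and NOTCH1 with both shRNAs (NOTCH1 0.37, adjusted p = 0.00109, and 0.17, 0.0456 by edgeR; HEYL with shXPO7_5 1.42, 0.0341) and JAG1 with shXPO7_5. It gave 0.07 for NOTCH4 and 0.06 for DLL4 in OIS, -0.13 for NOTCH3 and -0.07 for NOTCH4 with shXPO7_5, and -0.15 for NOTCH3 between the shRNAs. Counting error limits values that rest on few counts: NOTCH4 in all groups, DLL1 and HEYL most of all in vector and vector/4OHT, and HEY1 in vector (19 to 28 counts).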
